A study of Homo sapiens with 6 samples.

Results

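9 small non-coding RNAs made by RNA polymerase III were examined for cross-links to eIF4B: RN7SK, RN7SL1, RN7SL2, RNY1, RNY3, RNY4, RMRP, RPPH1 and VTRNA1-1. Each is short enough to be followed nucleotide by nucleotide. A cross-link position belonged to an RNA when it lay inside the GENCODE release 44 span of the gene on the same strand. The 9 RNAs are 9 of 23692 annotated genes with a count. They held 229 of 1179243 positions in DoHH-2 and 84 of 78474 in GM01953.

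Cross-linked RNA came from 2 cell lines, DoHH-2, from a diffuse large B-cell lymphoma (DLBCL), and GM01953, a control line of non-cancerous B cells. The labels name no treatment or genotype for either, and in both the living cells were irradiated with UVC, the RNA was trimmed with RNase I and the complexes were precipitated with an antibody against eIF4B. The 4 replicates of DoHH-2 and the 2 of GM01953 were pooled before deposit, so each line is 1 value, without SD or test between the lines, and each line is 1 model of its cell type. DoHH-2 held 2033156 cDNA counts and GM01953 167197, so that 1 count is 0.492 CPM (counts in 1000000 counts of the library) in the first and 5.98 in the second. Counts report cross-linked cDNA and not binding per molecule: RNA amount and binding cannot be told apart. B-cell markers were detected in both lines, 6 of 6 with 1814 counts in DoHH-2 and 636 in GM01953. The T-cell and myeloid markers had 0 counts in both, and the epithelial markers had 2 counts in DoHH-2 and 0 in GM01953.

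RNA polymerase III makes short, abundant transcripts that are folded and work inside protein complexes rather than as templates for protein. 7SK holds back the transcription elongation factor P-TEFb in the nucleus. The 7SL RNA is the scaffold of the signal recognition particle, Y RNAs bind the Ro60 and La proteins, RMRP and RPPH1 are the RNA subunits of RNase MRP and RNase P, and vault RNAs associate with the vault particle of the cytoplasm.

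Stretches of 30 nt around the 20-nt window with the most DoHH-2 counts of each RNA, and for VTRNA1-1 also around that of GM01953, are given here to show what the profiles below refer to. Sequences are from GRCh38, 5′ to 3′ on the RNA strand and in DNA letters. Capitals mark nucleotides with at least 5% of that RNA's DoHH-2 counts. RN7SK is shown from nt 262 to 291 (chr6:52995882-52995911, plus strand), RNY1 from 52 to 81 (chr7:148987168-148987197, minus strand), VTRNA1-1 from 21 to 50 (chr5:140711295-140711324, plus strand) and from 45 to 74 (chr5:140711319-140711348, plus strand), RMRP from 185 to 214 (chr9:35657804-35657833, minus strand) and RPPH1 from 26 to 55 (chr14:20343353-20343382, minus strand). Each lies in the single exon of its non-coding gene.
RN7SK: ggtagtCaagctTcCaagaCtccaGacaca
RNY1: cagatcgaacTccttGTtCTactCTttccc
VTRNA1-1, first stretch: gttactTcGacagttcttTaattgaaacaa
VTRNA1-1, second stretch: aaacaagcaacctGtCtgggttgttcgaga
RMRP: cgtcatccgtcagctCcCtctagTTacgca
RPPH1: ccacgagctgagtgcgtCctgtcactccac

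Most of the counts on these RNAs came from 7SK. The 9 RNAs together held 1764 counts in DoHH-2, 0.0868% of the library (95% Wilson interval 0.0828% to 0.0909%), and 269 in GM01953, 0.161% (0.143% to 0.181%). These intervals and those below cover counting error only, not the spread between cultures or PCR duplicates that were left. The ratio of the DoHH-2 share to the GM01953 share was 0.539 (95% interval 0.474 to 0.613). It was 0.827 with only positions of FDR below 0.05 and 0.181 with each position counted once. RN7SK alone made up 64.8% of the DoHH-2 counts of the 9 RNAs and 59.5% of the GM01953 counts. RN7SL1, RN7SL2, RNY3 and RNY4 had at most 8 counts each in either line. No count lay on the antisense strand of any of the 9 in either line.

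Positions with an FDR below 0.05 were frequent on 7SK, and less so on the other RNAs in GM01953. Over the 9 RNAs, such positions were 123 of 229 in DoHH-2 (53.7%, against 21.5% of all positions) and 41 of 84 in GM01953 (48.8%, against 36.6%). They held 87.8% of the 1764 DoHH-2 counts and 72.9% of the 269 GM01953 counts, while over all RNAs they held 43.7% and 55.6%. Without RN7SK they were 71 of 161 positions in DoHH-2 (44.1%, with 74.1% of the counts) and 14 of 49 in GM01953 (28.6%, with 48.6% of the counts), so that in GM01953 both values lay below those over all RNAs. Positions with a single count were 35.4% of those on the 9 RNAs in DoHH-2 and 83.9% of all positions, and in GM01953 40.5% and 60.8%.

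**Figure D1:**
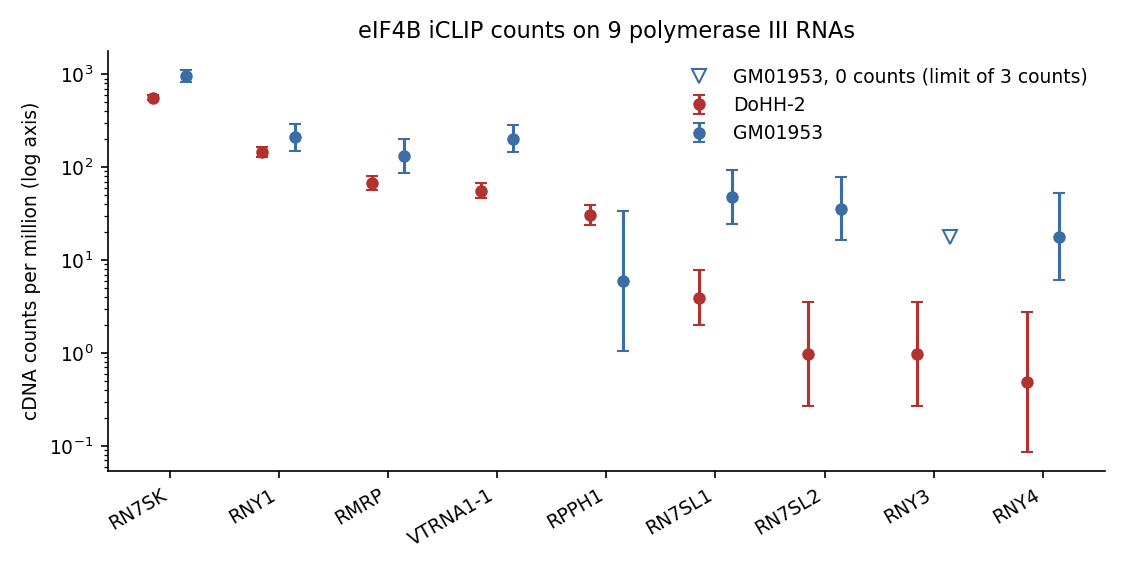
cDNA CPM on a log axis for the 9 RNAs in DoHH-2 (red) and GM01953 (blue). Bars are 95% Wilson intervals of counting error, and the open triangle marks the limit of 3 counts for RNY3, at 0 in GM01953. RN7SK is highest in both lines, at 562 and 957 CPM.

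7SK, which sequesters P-TEFb, was the most covered of the RNAs per length. It lies at chr6:52995621-52995948 (plus strand, ENSG00000283293) and is 328 nt long. It had 1143 counts at 68 positions in DoHH-2, or 562 CPM, and 160 counts at 35 positions in GM01953, or 957 CPM. The ratio of the shares was 0.587 (0.498 to 0.693). Per 100 nt it had 348 counts in DoHH-2 and 48.8 in GM01953. Among 4537 genes with a mean of at least 50 CPM over both tables it ranked 50 in DoHH-2 and 44 in GM01953 by counts per kb of gene span, which for most genes includes introns.

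All counts placed on 7SK were in the last part of the RNA. The first 221 nt had 0 counts in both lines. By counting error alone that allows up to 0.262% of the RNA's counts in DoHH-2 and 1.88% in GM01953. The following sequence there becomes unique only after 43 to 146 nt, so these limits do not cover reads that could not be placed. From nt 222 to 251 lay 208 counts in DoHH-2 and 15 in GM01953, from 252 to 257 none, and from 258 to 301 935 and 145. The stretch from 258 to 301 held 81.8% of the RNA's counts in DoHH-2 (79.5% to 83.9%) and 90.6% in GM01953 (85.1% to 94.2%).

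GM01953 counts on 7SK lay at nucleotides that also had a DoHH-2 count, with other weights. The nucleotide with the most DoHH-2 counts was 274, with 101, and GM01953 had 12 there. The nucleotide with the most GM01953 counts was 294, with 20, and DoHH-2 had 49. Nucleotides 286 and 281 had 91 and 78 counts in DoHH-2 but 3 and 7 in GM01953, while 276 had 64 and 17. All 35 nucleotides with a count in GM01953 also had one in DoHH-2, which had counts at 68 of the 80 nt from 222 to 301. The 20-nt window with the most DoHH-2 counts, from 267 to 286, held 61.6% (58.7% to 64.4%) for DoHH-2 and 59.4% for GM01953 (51.6% to 66.7%). Across the 80 nt from 222 to 301 the counts of the lines had a Pearson r of 0.642 and a Spearman rho of 0.687, given as a description since neighbouring nucleotides share sequence and reads.

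The place of the counts on 7SK moved with how much sequence sets it apart from its many genomic copies. At nucleotides with a count, the stretch that follows on the RNA became unique in the genome after a median of 32 nt, and at the most after 45 nt. At nucleotides without a count the median was 102 nt and the highest value 146 nt. The empty stretch from 252 to 257 needed 46 to 51 nt, and the first 221 nt needed 43 to 146 nt. Only 6 nucleotides without a count had a value of 44 nt or less and 225 had more, and 1 with a count had more than 44. The 299 genes annotated as copies of 7SK held 111 counts in DoHH-2 and 33 in GM01953. The part of mapping in the profile was not tested.

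**Figure D2:**
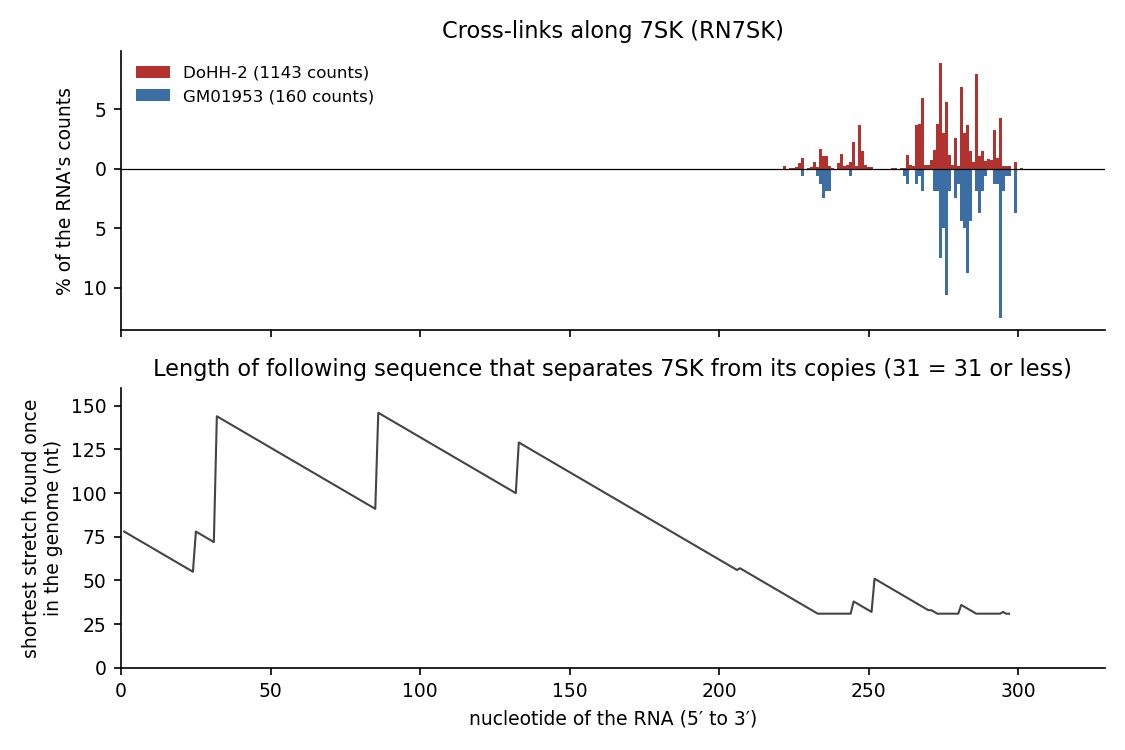
Upper panel: share of the counts on 7SK at each nucleotide, in percent, for DoHH-2 (upwards, 1143 counts) and GM01953 (downwards, 160 counts). Lower panel: the length in nt of the following stretch that is found once in the genome, with 31 standing for 31 or less; values end where fewer than 31 nt remain. Counts start at nt 222, where the required length is down to 42 nt.

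The 7SL RNAs, the scaffold of the signal recognition particle that brings ribosomes to the endoplasmic reticulum, had few counts. RN7SL1 (chr14:49586580-49586878, plus strand) had 8 counts in each line, at 7 positions in each. RN7SL2 (chr14:49862550-49862849, minus strand) had 2 in DoHH-2 and 6 in GM01953. As shares of the library that is 3.93 CPM for RN7SL1 in DoHH-2 and 47.8 in GM01953, and 0.984 and 35.9 for RN7SL2. The GM01953 share over the DoHH-2 share was 12.2 (4.56 to 32.4) for RN7SL1. Both were under the filter of 50 CPM and were not called. The 2 RNAs are 98.3% identical, and 0 of 268 stretches of 31 nt in RN7SL1 and 12 of 269 in RN7SL2 are found once in the genome, so how counts were split between copies is uncertain. For RN7SL1, 7 of 8 counts in DoHH-2 lay from nt 231 to 242, with 5 of 8 in GM01953.

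Of the Y RNAs, which bind Ro60 and La, RNY1 carried nearly all counts. RNY1 (chr7:148987136-148987248, minus strand, 113 nt) had 296 counts at 28 positions in DoHH-2, or 146 CPM, and 35 counts at 12 positions in GM01953, or 209 CPM. The ratio of the shares was 0.695 (0.490 to 0.987). Its cross-links were concentrated in the stretch from nt 57 to 76, which held 270 of 296 counts in DoHH-2 (91.2%, 87.4% to 93.9%) and 27 of 35 in GM01953 (77.1%, 61.0% to 87.9%). Nucleotide 68 was the highest in both lines, with 48 and 10 counts, followed in DoHH-2 by 70, with 40 counts against 4. Smaller groups of counts lay at nt 23 and 24, with 8 and 2 counts, and from 38 to 50, with 18 and 6. At 166 of the 296 counts in DoHH-2 and 18 of the 35 in GM01953, the sequence from the cross-link to the end of RNY1 is also found elsewhere in the genome. Y RNA copies held 72 counts in DoHH-2, 58 of them on RNY3P1, and 16 in GM01953.

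RNY3 (chr7:148983755-148983856, plus strand) had 2 counts in DoHH-2, at nt 65 and 66, and 0 of 167197 in GM01953, which allows a share of up to 0.00179%. RNY4 (chr7:148963315-148963410, plus strand) had 1 count in DoHH-2 and 3 in GM01953, all of them at nt 55. These 2 RNAs were thus near the detection limit in both lines.

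RMRP, the RNA of the RNase MRP complex that cuts precursors of ribosomal RNA, had 137 counts at 48 positions in DoHH-2 and 22 counts at 9 positions in GM01953. It lies at chr9:35657754-35658017 (minus strand) and is 264 nt long. That is 67.4 CPM in DoHH-2 and 132 in GM01953, with a ratio of 0.512 (0.326 to 0.803). The stretch from nt 183 to 247 held 122 counts in DoHH-2, 89.1% (82.7% to 93.3%), and 19 in GM01953, 86.4% (66.7% to 95.3%). Nucleotide 202 was highest in DoHH-2, with 23 counts, and had 5 in GM01953, where nt 235 was highest with 6 counts and had 4 in DoHH-2. RMRP has few repeated stretches: 232 of its 233 stretches of 31 nt are found once in the genome, inside and outside the covered part.

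RPPH1, the RNA of RNase P, which trims the 5′ ends of tRNA precursors, had a flatter profile. It lies at chr14:20343075-20343407 (minus strand) and is 333 nt long. It had 62 counts at 38 positions in DoHH-2 and 1 count in GM01953. The shares were 30.5 and 5.98 CPM, with a ratio of 5.10 (0.707 to 36.8), an interval that includes 1. The largest cluster, from nt 35 to 50, held 20 counts (32.3%, 22.0% to 44.6%), nt 43 was the highest with 5 counts, and 11 counts lay from 286 to 305. Positions with an FDR below 0.05 were 15.8% of those on RPPH1 in DoHH-2, against 76.5% for RN7SK, 64.3% for RNY1, 62.9% for VTRNA1-1 and 43.8% for RMRP.

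VTRNA1-1, an RNA of the vault particle, differed most between the lines among the 4 RNAs with a mean of at least 50 CPM. It lies at chr5:140711275-140711373 (plus strand) and is 99 nt long. It had 113 counts at 35 positions in DoHH-2, or 55.6 CPM, and 34 counts at 14 positions in GM01953, or 203 CPM. The GM01953 share was 3.66 times the DoHH-2 share (2.49 to 5.37). It was the only one of the 4 members past the filter (RN7SK, RNY1, RMRP and VTRNA1-1) that was at least 2-fold higher in GM01953, where 19.4% of all 4537 genes were; 0 of the 4 were at least 2-fold higher in DoHH-2, where 16.9% of all genes were. All 4 ratios were below 1, between 0.273 and 0.695, while the median ratio of all genes was 1.0 with quartiles of 0.598 and 1.60. VTRNA1-1, RMRP and RN7SK lay below the lower quartile. With only positions of FDR below 0.05, the VTRNA1-1 ratio was 0.651 and no RNA was called as higher in GM01953, where 42.5% of genes were, and the RNY1 ratio turned to 1.13. With each position counted once, all 4 were at least 2-fold higher in GM01953, where 16.7% of genes were. The number of positions depends on the number of counts. At each RNA's own GM01953 number of counts, the DoHH-2 counts would lie at 42.1 nt of RN7SK, where GM01953 had 35. The values were 16 nt of RNY1 (12 in GM01953), 15.8 nt of RMRP (9) and 20.3 nt of VTRNA1-1 (14). Equal counts per RNA also take away the difference in share, so these values cannot give the part of depth in the 4 calls. That part was not tested.

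The place of the cross-links on VTRNA1-1 also differed between the lines. In its first 49 nt lay 72 of 113 counts in DoHH-2 (63.7%, 54.5% to 72.0%) and 9 of 34 in GM01953 (26.5%, 14.6% to 43.1%). In the remaining 50 nt lay 36.3% in DoHH-2 and 73.5% in GM01953 (56.9% to 85.4%). The intervals of the lines do not overlap, and with 1 value per line no test was possible. Nucleotide 39 had 10 counts in DoHH-2 and 0 in GM01953, nucleotide 58 had 12 and 1, and nucleotides 59 and 60 had 4 and 8 in DoHH-2 and 6 each in GM01953. The 31 nt that follow nucleotides 58 to 61 occur at 2 places in the genome, and 32 to 35 nt are needed there. With only positions followed by 31 nt found once, 86 and 20 counts remained. The DoHH-2 share over the GM01953 share was then 0.354. The capitals in the first VTRNA1-1 stretch shown above are nucleotides 27, 29 and 39, and those in the second are 58 and 60.

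**Figure D3:**
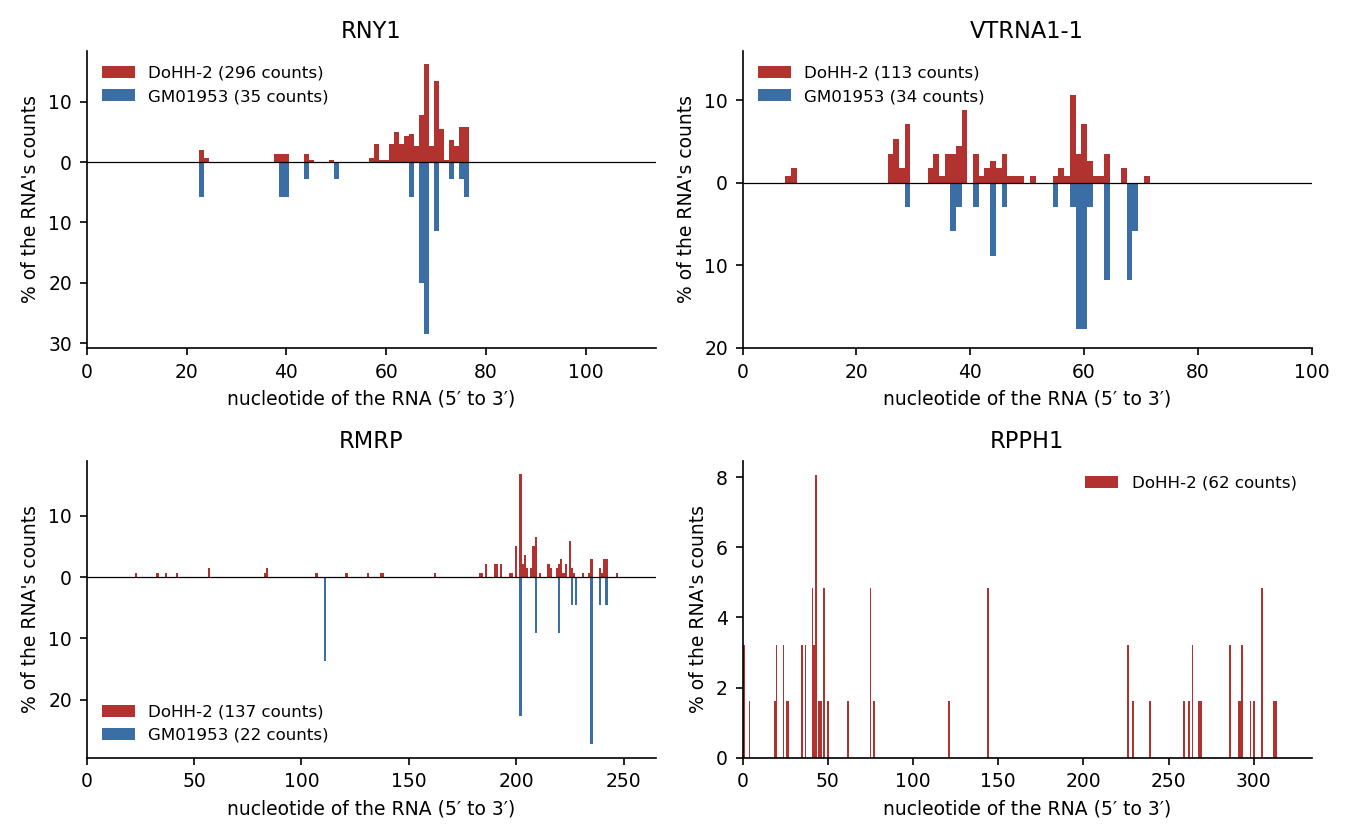
Share of each RNA's counts at each nucleotide, in percent, on RNY1, VTRNA1-1, RMRP and RPPH1, with DoHH-2 upwards and GM01953 downwards. RPPH1 is drawn for DoHH-2 only, since GM01953 had 1 count there. RNY1 has most of its counts from nt 57 to 76 in both lines. RMRP has most from nt 183 to 247 in both, but its highest nucleotide is 202 in DoHH-2 and 235 in GM01953. On VTRNA1-1 GM01953 has most of its counts past nt 50.

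**Figure D4:**
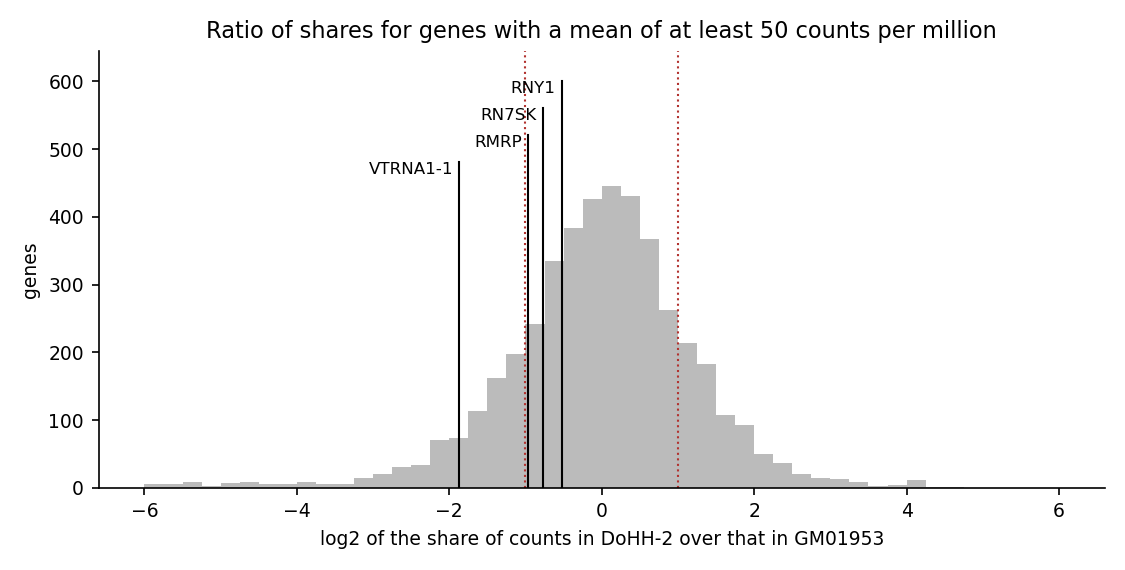
Number of genes (vertical axis) by the log2 of the DoHH-2 share of counts over the GM01953 share, for genes with a mean of at least 50 CPM. The dotted lines mark a 2-fold difference and the 4 vertical lines the members past the filter, all of which lie to the left of 0 by their counts (RNY1 lies at a ratio of 1.13 with positions of FDR below 0.05 alone). Of 4537 genes, 43 with 0 counts in 1 line and 59 beyond the axis are not drawn.

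The base at the cross-link differed between the RNAs. C or T was the cross-linked base for 72.7% of the counts on the 9 RNAs for DoHH-2 and 74.3% for GM01953, against 65.9% and 64% of all counts. On 7SK the base was C for 40.3% of the DoHH-2 counts and 56.3% of the GM01953 counts, where C makes up 25% of the stretch from 222 to 301. On RNY1 it was T for 50.7% and 54.3%, where the stretch from 23 to 76 has 38.9% T. On the 9 RNAs together T alone was less frequent than over all counts, at 34.9% against 43.9% in DoHH-2. C or T made up 58.4% of the DoHH-2 counts on VTRNA1-1 and 48.4% on RPPH1, both below the share over all counts. The covered stretches of these RNAs have 56.25% and 45.4% C or T. On VTRNA1-1 the GM01953 value was 67.6%, above the share over all counts. On RPPH1 48.4% of the DoHH-2 counts were G, where the covered stretch has 35.8% G. In the minimum free energy structure from RNAfold, unpaired nucleotides held 34.5% of the DoHH-2 counts on 7SK, where 41.3% of the covered nucleotides are unpaired, 54.9% of those on VTRNA1-1, where 37.5% are, and 50.3% of those on RNY1, where 37.0% are. In GM01953 the values were 46.9%, 52.9% and 34.3%. The sequence was folded alone, without its proteins.

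Nucleotides were shared between the lines on the well covered RNAs and less so on the 7SL RNAs. Of the 84 nucleotides with a count in GM01953, 69 (82.1%) also had a count in DoHH-2, against 33.0% of all GM01953 positions. They were 30.1% of the 229 nucleotides of DoHH-2. The share was 35 of 35 on RN7SK, 11 of 12 on RNY1, 12 of 14 on VTRNA1-1 and 7 of 9 on RMRP, but 2 of 7 on RN7SL1 and 0 of 5 on RN7SL2. Short, highly covered RNAs have more counts for each nucleotide. DoHH-2 had a count at 68 of the 80 nt from 222 to 301 of RN7SK and at 20 of 20 from 57 to 76 of RNY1. Of all DoHH-2 positions, 83.9% had a single count. The share expected from this coverage was not computed, so 82.1% and 33.0% are not a like comparison. The last nucleotide with a count lay 27, 37, 17, 20 and 28 nt before the 3′ end of RN7SK, RNY1, RMRP, RPPH1 and VTRNA1-1 in DoHH-2. In the 2 nt just before the first nucleotide, where the stop falls when a cDNA reaches the 5′ end, DoHH-2 had 10 counts over 5 of the 9 RNAs and GM01953 had 0.

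The mRNAs of proteins that work with these RNAs were looked at as a list. Of 29 such genes, 9 passed the filter of 50 CPM, 2 were at least 2-fold higher in DoHH-2 (against 16.9% of all genes), 0 in GM01953 (against 19.4%) and 7 lay within 2-fold. The 2, named here for their calls, were SRP68, a subunit of the signal recognition particle, with 157 CPM in DoHH-2 and 53.8 in GM01953 (ratio 2.92, 1.51 to 5.67), and SSB, which encodes La, with 270 and 114 (2.37, 1.5 to 3.75). LARP7, which binds the 3′ end of 7SK, had 81.6 and 41.9 CPM (1.95, 0.915 to 4.15), and CDK9, the kinase of P-TEFb, had 62.0 and 53.8 (1.15, 0.585 to 2.26). Among the others with the highest mean CPM over both lines in their complex, SRP14 had 149 and 126 CPM, SRP72 179 and 150, RO60 39.8 and 53.8, PARP4 128 and 83.7, TEP1 20.7 and 0, RPP21 20.2 and 65.8 and POP7 32.5 and 47.8. For RNase P and MRP, the share was higher in DoHH-2 for RPP25L (53.6 and 0 CPM), RPP14 (46.2 and 29.9), RPP38 (25.1 and 17.9) and RPP40 (6.89 and 0). The other genes of that list with a count had the higher share in GM01953.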

How the data were processed

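eIF4B iCLIP libraries were made by the authors from DoHH-2 and GM01953 cells (UVC cross-linking, RNase I, anti-eIF4B immunoprecipitation). Per the paper's methods, PCR duplicates were removed with BBMap, reads were demultiplexed with Je, trimmed, mapped to GRCh38 with HISAT2 and counted with iCount. Versions, the annotation release and how reads with several matches were treated are not given in the sources used here. The deposited tables hold, for each position, the cDNA count (whole numbers, not normalized) and an FDR, a p-value adjusted by iCount, from pooled replicates of each line. Positions counted from 0 were found by the edges of genes, so 1 was added.

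Counts were summed over the GENCODE release 44 spans of the members on their strand, as shares of the table's total. Genes with a mean of at least 50 CPM (counts in 1000000) over both tables were called at 2-fold. Wilson 95% intervals (scipy 1.17.1) are for shares and log intervals for ratios. Sequence uniqueness was found by exact search of GRCh38 without alternate contigs, structures with ViennaRNA 2.7.2. The stretch boundaries are runs of counts with fewer than 5 empty nt between them, set after the profiles were seen. The sums and calls were tested on simulated data, with equal depth in both groups and more counts per span than these RNAs had in GM01953. That checks the code and not how reliable calls are at low counts. Alternatives changed 1 choice at a time. Named genes are all members, the 12 other polymerase III RNAs, and, of the partner genes, the 2 with the highest mean CPM in each complex. SRP68 was added for its call, and RPP25L, RPP14, RPP38 and RPP40 for their higher share in DoHH-2. Members and lists were chosen with earlier results of these data known. No column of per-sample values was left unused.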

Additional observations from a re-analysis of the deposited data

How the results depend on the processing

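No paired analysis was possible because both tables pool the replicates, and leaving out a replicate could not be run for the same reason. Of the 9 alternatives, 7 were planned and 2 were added after seeing the data: position read as counted from 1, and sequence to the 3′ end found once. With positions of FDR below 0.05 the shares were 0.174% and 0.211% and the ratio 0.827, with 0 members at least 2-fold higher in GM01953, and the RNY1 ratio turned to 1.13. With each position counted once, the shares were 0.0194% and 0.107%, the ratio 0.181 and the count of members higher in GM01953 4. With histone genes out of the total, the shares were 0.108% and 0.187%. With positions followed by 31 nt found once, they were 0.0448% and 0.0909% and 2 members were at least 2-fold higher in GM01953 (RNY1 gave no value). The percent of all genes called with that choice was not computed, so these 2 calls have no background beside them. Without the highest position of each RNA they were 0.0772% and 0.131%. With sequence to the 3′ end found once, the DoHH-2 share was 0.0785%. The cause was not tested. The ratio of the shares was below 1 under all 9 alternatives. Some of these sum almost the same counts and so could hardly differ. It was 0.543 with spans extended by 10 nt, 0.540 by the listed gene name and 0.540 with positions read as counted from 1. Of the ratios of RN7SK, RNY1, RMRP and VTRNA1-1 under the alternatives, 27 stayed within their counting interval, 7 moved beyond it on the same side of 1 and 1, RNY1, turned. In GM01953 an RNA at 0 may hold up to 17.9 CPM, and every value rests on 1 table per line.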

Other observations

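Of 12 other polymerase III RNAs, 11 are in GENCODE release 44, 5 had a count in DoHH-2 and 4 in GM01953. VTRNA2-1, also called nc886, a short polymerase III RNA that is no longer counted among the vault RNAs, had 0 counts in DoHH-2 and 30 at 11 positions in GM01953, or 179 CPM. It was the only 1 of the 12 past the filter of 50 CPM, with a mean of 89.7 CPM that came from GM01953 alone. Of the 4537 genes past that filter, 36 had 0 counts in DoHH-2 and 7 had 0 in GM01953. Set against the limit of 3 counts in DoHH-2, 1.48 CPM, the GM01953 share of VTRNA2-1 was 122-fold higher. That value is set by the chosen limit and leaves out the counting error of the 30 counts, so it is not a lower limit. The counts lay from nt 46 to 71, with 12 at nt 46. Only nt 46, 48, 49 and 51 had an FDR below 0.05. With 1 value per line there is no replicate check. VTRNA1-2 and VTRNA1-3 had 0 counts in DoHH-2 and 2 each in GM01953. RNU6-9 had 31 counts in DoHH-2 and 1 in GM01953 (2.55, 0.348 to 18.7), RNU6ATAC 7 and 0, and BCYRN1 3 and 0. RNU6-2 had 2 and 0 counts and RNU6-8 had 1 and 0. RN7SL3, RNU6-1 and RNU6-7 had 0 in both lines, and RNY5 was not found by that name in the annotation.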
